A study of Homo sapiens with 6 samples.

Results

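RB1, the genes of the 9p21 region and the G1 cyclins and kinases were followed in 2 human ovarian carcinoma cell lines. The set held 10 genes, RB1, RBL2, CDKN2A, CDKN2B, MTAP, CDK4, CDK6, CCND1, CCND3 and CCNE1. Its members were all probe sets whose only gene symbol was one of these, 29 of the 54613 probe sets on the array that were not controls and 10 of 19775 genes. CDK6 had 7 probe sets, MTAP 6, CDKN2A 3, CDK4 1 and each of the other genes 2. The rule selects probe sets by gene symbol and sets no threshold on a measured value, but the genes were chosen with earlier results of these data known.

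The lines were Caov-3 and SKOV-3, both established epithelial ovarian cancer lines, and each was left untreated, given interleukin-6 (IL-6) at 30 ng/ml for 1 h, or given siltuximab (CNTO328), an antibody that binds IL-6, for 4 h before the same IL-6 treatment. Each of the 6 groups was 1 Affymetrix U133 Plus 2.0 array of total RNA pooled from 3 flasks. A group was therefore 1 sample, and the spread between flasks was not measured. The study asked how siltuximab affects the genes that IL-6 induces. The antibody dose and an arm with the antibody alone were not part of the material used here.

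The product of RB1 is the retinoblastoma protein, which binds E2F transcription factors and holds cells in G1. Cyclin D with CDK4 or CDK6, followed by cyclin E with CDK2, phosphorylates that protein and releases E2F. CDKN2A encodes p16INK4a, an inhibitor of CDK4 and CDK6, and, from another first exon, p14ARF, which acts through MDM2 and p53. CDKN2B encodes the related inhibitor p15INK4b. MTAP, their neighbour on chromosome 9, encodes methylthioadenosine phosphorylase, which recycles a by-product of polyamine synthesis. In human cancers the 3 genes on 9p21 are often deleted together, and loss of the retinoblastoma protein often goes with high p16INK4a.

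The promoters of MTAP, CDKN2A and CDKN2B are shown because these 3 neighbours had the same direction between the lines. Each sequence is the 250 bases before a RefSeq transcription start in GRCh38.p14, read 5′ to 3′ on the strand of the gene. RefSeq's promoter table held 9 of the 10 genes. Capitals mark the GC box GGGCGG on either strand, a motif of the transcription factor SP1. The MTAP window is chr9:21802386-21802635 on the plus strand, and the CDKN2B window is chr9:22009306-22009555 on the minus strand. CDKN2A has 2 windows on the minus strand, chr9:21974858-21975107 for the start that leads into p16INK4a and chr9:21995325-21995574 for the start that leads into p14ARF.
MTAP: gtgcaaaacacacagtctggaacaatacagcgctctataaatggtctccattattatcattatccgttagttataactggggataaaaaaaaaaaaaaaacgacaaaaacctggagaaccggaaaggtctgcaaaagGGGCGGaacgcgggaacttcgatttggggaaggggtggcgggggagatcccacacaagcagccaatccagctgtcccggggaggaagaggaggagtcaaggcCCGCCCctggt
CDKN2A, p16INK4a start: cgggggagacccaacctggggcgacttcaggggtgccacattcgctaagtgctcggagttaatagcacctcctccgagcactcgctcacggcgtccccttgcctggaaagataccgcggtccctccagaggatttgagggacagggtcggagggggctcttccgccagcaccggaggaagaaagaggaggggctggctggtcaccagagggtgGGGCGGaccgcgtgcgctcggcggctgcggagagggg
CDKN2A, p14ARF start: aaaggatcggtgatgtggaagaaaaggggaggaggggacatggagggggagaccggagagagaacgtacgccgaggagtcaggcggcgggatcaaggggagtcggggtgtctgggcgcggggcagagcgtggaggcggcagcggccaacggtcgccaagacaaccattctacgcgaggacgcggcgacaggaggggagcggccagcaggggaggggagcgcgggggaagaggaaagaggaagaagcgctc
CDKN2B: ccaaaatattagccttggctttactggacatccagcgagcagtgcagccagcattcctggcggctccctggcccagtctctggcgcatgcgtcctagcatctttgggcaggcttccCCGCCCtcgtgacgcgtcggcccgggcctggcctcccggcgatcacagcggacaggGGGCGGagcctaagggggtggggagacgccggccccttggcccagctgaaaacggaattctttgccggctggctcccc
The GC box occurred 2 times in the MTAP window, 2 times in that of CDKN2B, 1 time before the p16INK4a start and 0 times before the p14ARF start. It was present in 42.6% of 35116 windows of the same length and kind. A search for 4 spellings of the E2F site on both strands (TTTCCCGC, TTTCGCGC, TTTGCCGC and TTTGGCGC) gave 0 matches in the 14 windows of the 9 genes, against a match in 2.79% of all windows. The only window of RB1 was chr13:48476200-48476449, so that a start elsewhere in the gene was not searched. A match or its lack describes these letters only.

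The values are signal intensities on a linear scale as deposited. Arrays had been scaled alike, with array medians of 72.8 to 89.8. Correlations across probe sets, which are not independent replicates, were 0.962 to 0.980 within a line and 0.867 to 0.883 between lines. On the Caov-3 IL-6 array the ACTB controls, a guide to RNA integrity, had a 5′ to 3′ ratio of 0.494, where the remaining 5 arrays had 0.643 to 0.767. For GAPDH this ratio was 0.957 to 1.07. The lines were compared with limma over all 54613 probe sets, with treatment as a block and p-values adjusted by Benjamini-Hochberg over all of them. The 3 arrays of a line are 3 treatments and not replicates. Differences are Caov-3 minus SKOV-3 on the log2(signal + 17.0625) scale, which understates the difference of dim probe sets, and a probe set was called at an adjusted p under 0.05.

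Markers were read before the results. KRT8 and KRT18, keratins of simple epithelia, did not differ between the lines past the test and had signals of 7079 or more on all 6 arrays. EPCAM, KRT7, KRT19 and CDH1, 4 of the 6 epithelial markers, were higher in Caov-3, and KRT19 lay between 4.37 and 57.9 on the arrays labelled SKOV-3. Of 4 ovarian carcinoma markers, 3 were higher in Caov-3, and WT1, at 19.3 or less on every array, was not called. PAX8, a factor of Müllerian epithelium, had 971 to 1056 in Caov-3 and 495 to 683 in SKOV-3. MUC16 had 593 to 860 in Caov-3 and 2.92 to 5.90 in SKOV-3 (log2 difference 5.17), and SOX17 stood at 1.60. Of the leukocyte markers, PTPRC and CD3D were at 41.45 or less on every array, and CD14 was higher in Caov-3 (log2 difference 2.43). Of 5 fibroblast and endothelial markers, COL1A1 and PECAM1 were higher in Caov-3 and COL3A1, DCN and VWF were not called. ERBB2, known to be amplified in SKOV-3, had 1017, 1243 and 1067 in Caov-3 (untreated, IL-6, siltuximab plus IL-6), against 648, 580 and 733 on the arrays labelled SKOV-3 (log2 difference 0.75, limma adjusted p = 0.00789). The other ERBB2 probe sets, at 0.28 and -0.01, were not called. This marker goes against the label, so that SKOV-3 below means the arrays labelled SKOV-3.

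Of the 29 probe sets, 8 were called higher in Caov-3, where 15.6% of all probe sets were called, and 10 were called lower, where 14.8% of all were. At least 1 probe set was called higher for 4 genes, CDKN2A, CDKN2B, MTAP and CCND3, and at least 1 was called lower for 4 others, RB1, CDK4, CDK6 and CCND1. RBL2 and CCNE1 had none. With each gene at its probe set of highest mean log2(signal + 17.0625), 3 of the 10 genes were higher (22.8% of all genes) and 4 were lower (18.1% of all genes). The signals of the lines did not overlap in 22 of the 29, against 44.1% of all probe sets. The median size of the log2 difference was 1.69 over the 29 probe sets and 0.46 over all. Since the members were chosen with earlier results of these data known, their distance from the values over all probe sets is not a test. Without the Caov-3 IL-6 array, the one with the low ACTB ratio, all 18 calls were kept.

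**Figure D1:**
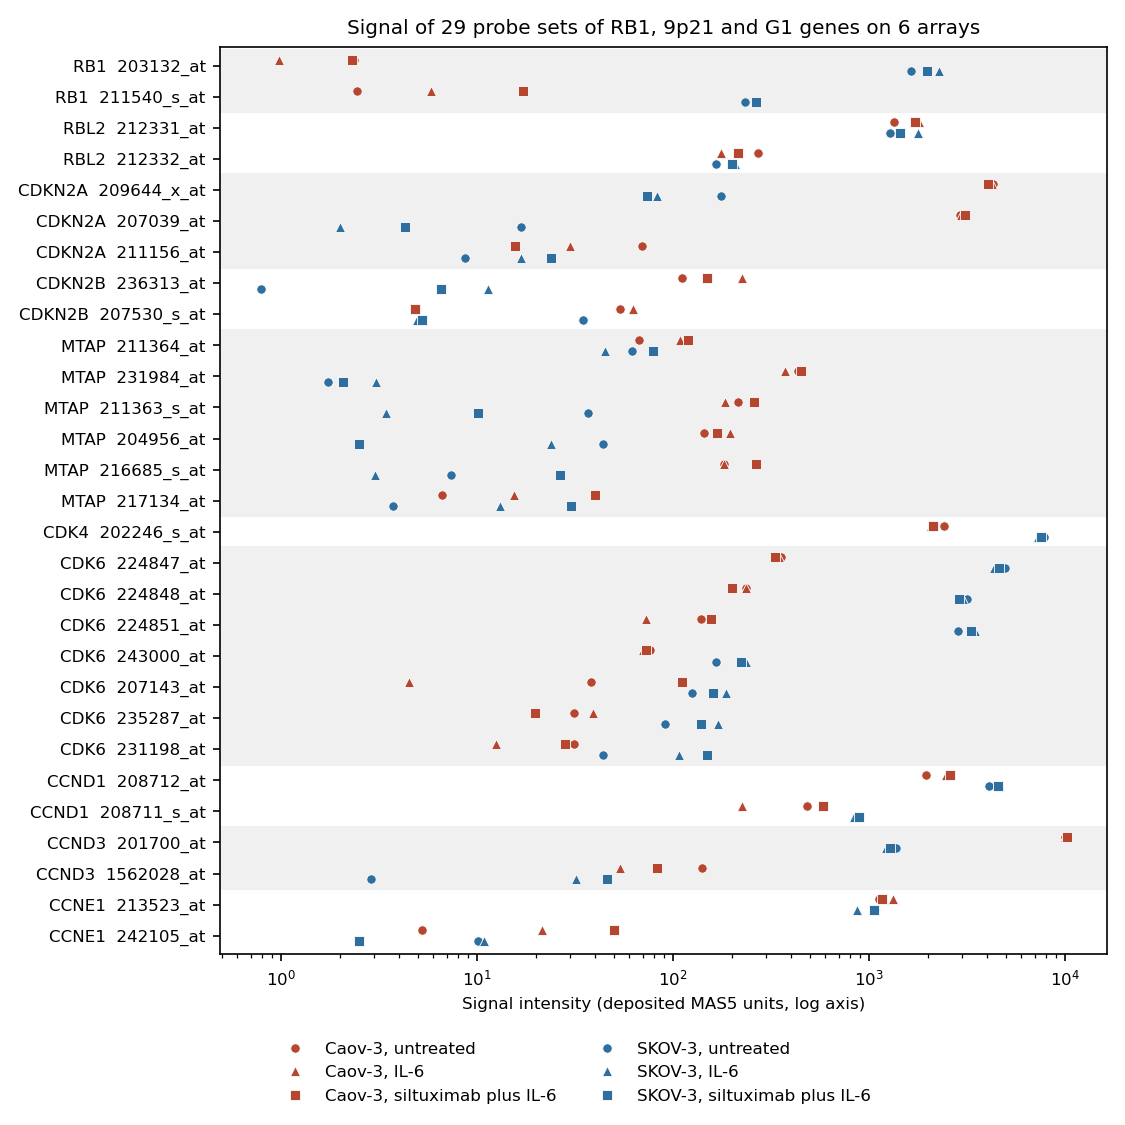
Signal intensity (log axis) of each of the 29 probe sets on the 6 arrays, with Caov-3 in red above SKOV-3 in blue and a symbol for each treatment. RB1, CDK4, CDK6 and CCND1 lie to the right in SKOV-3, CDKN2A, CDKN2B, MTAP and CCND3 have probe sets that lie to the right in Caov-3, and the points of RBL2 overlap.

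RB1 was close to the bottom of the scale in Caov-3 and bright in SKOV-3. Its first probe set, 203132_at, had signals of 2.37 in untreated Caov-3, 0.975 with IL-6 and 2.30 with siltuximab plus IL-6. The SKOV-3 signals in the same order of treatment were 1640, 2282 and 1980. All 3 Caov-3 arrays lay below the pseudocount of 17.06 and all 3 SKOV-3 arrays above 1000, with no overlap. The log2 difference was -6.70 (SE 0.23, limma adjusted p = 1.39e-05). It moved between -9.44 with a pseudocount of 1 and -4.19 with one at the median, since the Caov-3 signals are near 0.

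The second RB1 probe set, 211540_s_at, had 2.46, 5.86 and 17.15 in Caov-3, against 233, 264 and 264 in SKOV-3. Its lines did not overlap either, and the log2 difference was -3.44 (SE 0.34, limma adjusted p = 0.000533), or -5.07 and -1.61 with those pseudocounts. Both probe sets of the gene had the same direction. In pooled RNA, fewer cells with the transcript and less of it in each cell cannot be told apart.

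RBL2 encodes p130, the relative of the retinoblastoma protein that is most abundant in resting cells. On 212331_at it had 1345, 1805 and 1717 in Caov-3, against 1287, 1780 and 1449 in SKOV-3. The lines overlapped, and the log2 difference of 0.11 (SE 0.093) was not called (limma adjusted p = 0.459). The dimmer 212332_at had 271.9, 176.1 and 216 in Caov-3, against 165.3, 207.6 and 200.6 in SKOV-3. It overlapped as well, at a log2 difference of 0.18 (limma adjusted p = 0.646) that turned to -0.06 without the untreated array of either line.

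The other partners were read from a list of 17 genes, all measured. In Caov-3, 1 was higher (22.8% of all genes), 6 were lower (18.1% of all genes) and 10 were not called. RBL1, which encodes the third pocket protein, p107, had 154, 103 and 204 in Caov-3, against 377, 619 and 516 in SKOV-3. That is a log2 difference of -1.63 (limma adjusted p = 0.00542), the largest of the list in size. E2F2, an activating E2F, was the gene called higher, at 1.07. TFDP1, which encodes the DP1 partner of the E2F proteins, was lower at -0.99. E2F1, on its probe set of highest mean, stood at 0.13 (limma adjusted p = 0.616). The list's median was -0.22, beside 0.06 over all genes.

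The genes around RB1 on chromosome 13 had smaller differences, in both directions. Of 19 measured genes of 13q14, each on its probe set of highest mean, 3 were higher (22.8% of all genes), 6 were lower (18.1% of all genes) and 10 were not called. MED4, a Mediator subunit, had the largest difference on those probe sets, at -0.91. On its other probe set MED4 stood at 0.08 and was not called (limma adjusted p = 0.713), so that its probe sets disagreed. LPAR6, a lysophosphatidic acid receptor whose gene lies inside an intron of RB1, had 485, 582 and 490 in Caov-3, against 287, 377 and 308 in SKOV-3. It was higher in Caov-3 by 0.66 (SE 0.14, limma adjusted p = 0.0125), while RB1 was lower. ITM2B, a neighbour on the other side, had 11384, 13053 and 13959 in Caov-3, against 10106, 11763 and 11720 in SKOV-3, a log2 difference of 0.19 that was not called (limma adjusted p = 0.075). Its second probe set stood at 1.03 and was called. On further probe sets SETDB2 (-1.63), DLEU2 (-1.38) and ESD (-1.18) were called lower, and TRIM13 (1.02) was called higher. KPNA3, an importin, was lower at -0.85, and FNDC3A was higher at 0.78.

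CDKN2A was bright in Caov-3 and far lower in SKOV-3 on 2 of its 3 probe sets. On 209644_x_at its signals were 4271, 4239 and 4036 in Caov-3, against 175.1, 82.6 and 73.8 in SKOV-3. On 207039_at they were 2907, 2945 and 3088 in Caov-3, against 16.8, 1.995 and 4.31 in SKOV-3. Neither probe set overlapped between the lines. The SKOV-3 signals of 209644_x_at lay at percentiles 62.2, 50.4 and 49.6 of their arrays. The log2 differences were 5.13 (SE 0.21, limma adjusted p = 2.54e-05) and 6.97 (SE 0.23, limma adjusted p = 1.25e-05). All SKOV-3 signals of 207039_at lay below the pseudocount, and its difference was 8.83 with a pseudocount of 1 and 4.70 with one at the median. Both values were called.

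The remaining CDKN2A probe set, 211156_at, had 69.5, 30.0 and 15.7 in Caov-3, against 8.65, 16.9 and 23.8 in SKOV-3. It was dim on every array and overlapped (log2 difference 0.64, limma adjusted p = 0.37). The suffix x on 209644_x_at means that some of its probes can also match other transcripts, and no such suffix is on 207039_at.

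CDKN2B followed the same direction at lower signals. On 236313_at it had 111, 225 and 149 in Caov-3, against 0.788, 11.4 and 6.58 in SKOV-3. No SKOV-3 array reached the lowest Caov-3 array, and the log2 difference was 2.92 (SE 0.33, limma adjusted p = 0.00099). It was 4.83 with a pseudocount of 1 and 1.20 with one at the median, and was called with both. On 207530_s_at the values were 53.8, 62.3 and 4.81 in Caov-3, against 34.6, 4.98 and 5.28 in SKOV-3. Those overlapped, since the Caov-3 array with siltuximab plus IL-6 was lower than all 3 SKOV-3 arrays, and the difference of 0.76 was not called (limma adjusted p = 0.257).

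MTAP was higher in Caov-3 on 4 of its 6 probe sets. The clearest was 231984_at, with 434, 373 and 448 in Caov-3, against 1.73, 3.06 and 2.07 in SKOV-3. Every SKOV-3 array lay below the pseudocount, and the log2 difference was 4.49 (SE 0.31, limma adjusted p = 0.00014), or 7.01 with a pseudocount of 1 and 2.22 with one at the median. On 216685_s_at the Caov-3 signals were 183, 183 and 264, against 7.36, 3.01 and 26.6 in SKOV-3, a log2 difference of 3.01. On 211363_s_at they were 215, 184 and 258.5 in Caov-3, against 36.9, 3.46 and 10.2 in SKOV-3, a log2 difference of 2.91. The lines did not overlap on either probe set. Over those pseudocounts the first stood at 4.42 and 1.38 and the second at 4.14 and 1.37, and all were called.

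A further MTAP probe set, 204956_at, had 144.5, 196.3 and 167.3 in Caov-3, against 43.8, 23.9 and 2.51 in SKOV-3. Its log2 difference of 2.34 (SE 0.44, limma adjusted p = 0.00796) was no longer called without the Caov-3 array of siltuximab plus IL-6, at 1.90 and an adjusted p of 0.0585. With the pseudocounts of 1 and at the median it was called at 3.42 and 1.07. The probe sets that were not called overlapped between the lines. They were 211364_at, with 67.3, 108 and 120 in Caov-3 against 61.5, 45.1 and 78.7 in SKOV-3 (0.54, limma adjusted p = 0.303), and 217134_at, which was at 39.9 or less on all 6 arrays (0.19, limma adjusted p = 0.663). In counts by gene a gene stands on the probe set with the highest mean of log2(signal + 17.0625), which is 211364_at for MTAP, so that MTAP is not among the genes called there although 4 of its other probe sets were called.

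**Figure D2:**
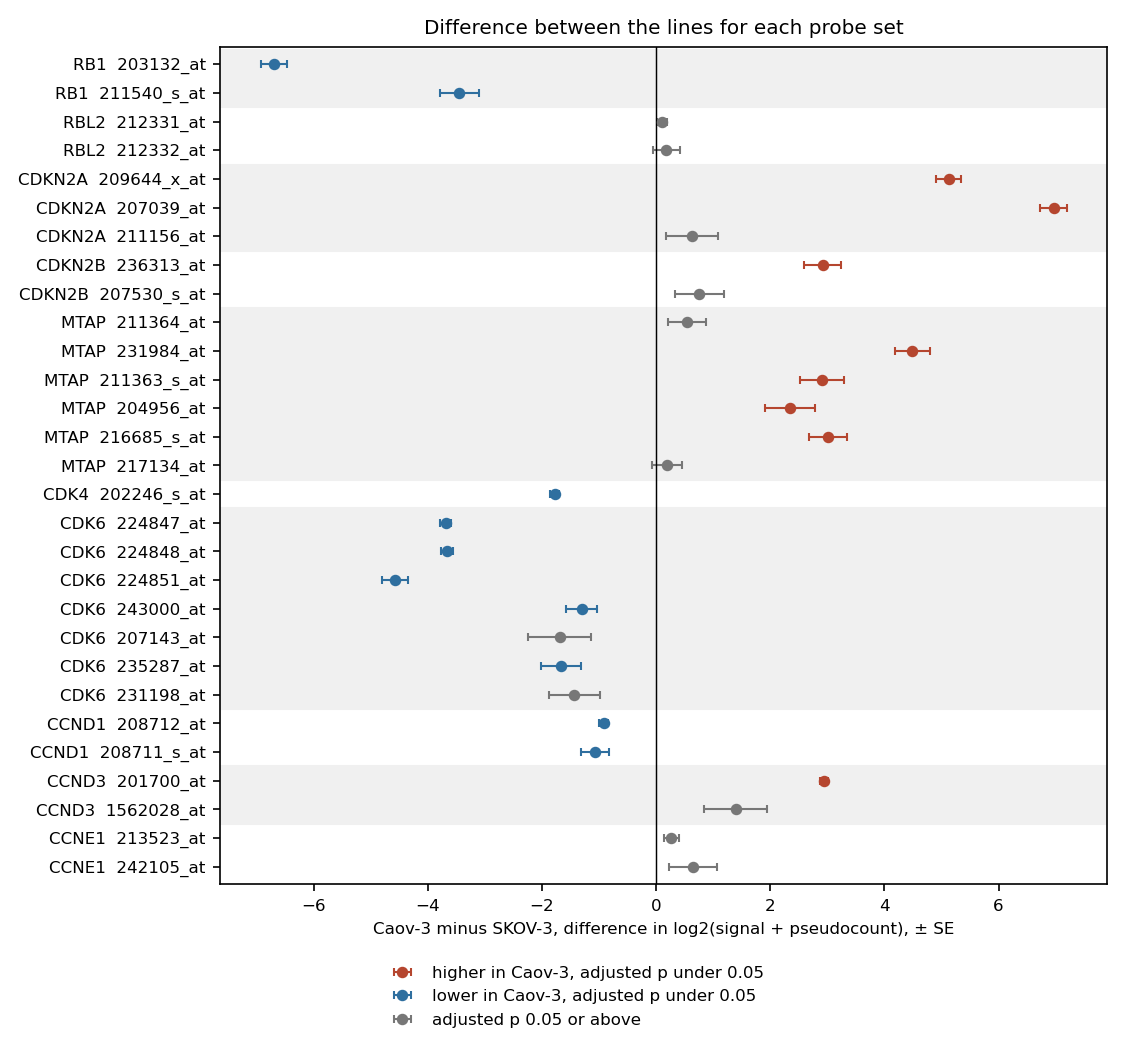
Caov-3 minus SKOV-3 difference on the log2(signal + pseudocount) scale for each of the 29 probe sets, with bars of 1 SE from limma. Red points were called higher in Caov-3 (8), blue points lower (10) and grey points were not called (11), and the ends of the range are RB1 203132_at at -6.70 and CDKN2A 207039_at at 6.97.

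Around the 3 genes on chromosome 9 the differences were of both directions. Of 16 other measured genes of 9p21, 2 were higher in Caov-3 (22.8% of all genes), 5 were lower (18.1% of all genes) and 9 were not called. TUSC1, a candidate tumour suppressor gene, had 2914, 2833 and 3038 in Caov-3, against 23.8, 3.80 and 20.2 in SKOV-3, a log2 difference of 6.54 (SE 0.23, limma adjusted p = 1.43e-05). HACD4, an enzyme of fatty acid elongation, had 752, 952 and 863 in Caov-3, against 50.5, 2.49 and 21 in SKOV-3, a log2 difference of 4.56 (SE 0.41, limma adjusted p = 0.000384). The second HACD4 probe set stood at -0.58 and was not called.

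Genes that lie between HACD4 and MTAP were among those lower in Caov-3. IFNB1, which encodes interferon beta, had 28.5, 65.9 and 7.89 in Caov-3, against 242, 203 and 172 in SKOV-3 (log2 difference -2.28, SE 0.39, limma adjusted p = 0.00572). KLHL9, a substrate adaptor of a ubiquitin ligase, had 1253, 1347 and 1107 in Caov-3, against 2355, 2386 and 2513 in SKOV-3, a log2 difference of -0.96. IFNE and MIR31HG, the host transcript of a microRNA, stood at -1.35 and -0.86, and both were called lower. Farther out, FOCAD on one side and CAAP1 on the other had differences of -0.10 and 0.02 and were not called. The antisense RNA CDKN2B-AS1 and DMRTA1, neighbours of CDKN2B, had signals of 47.2 or less on all arrays. DNA was not measured, so that a lost gene and a gene that is not transcribed cannot be told apart.

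**Figure D3:**
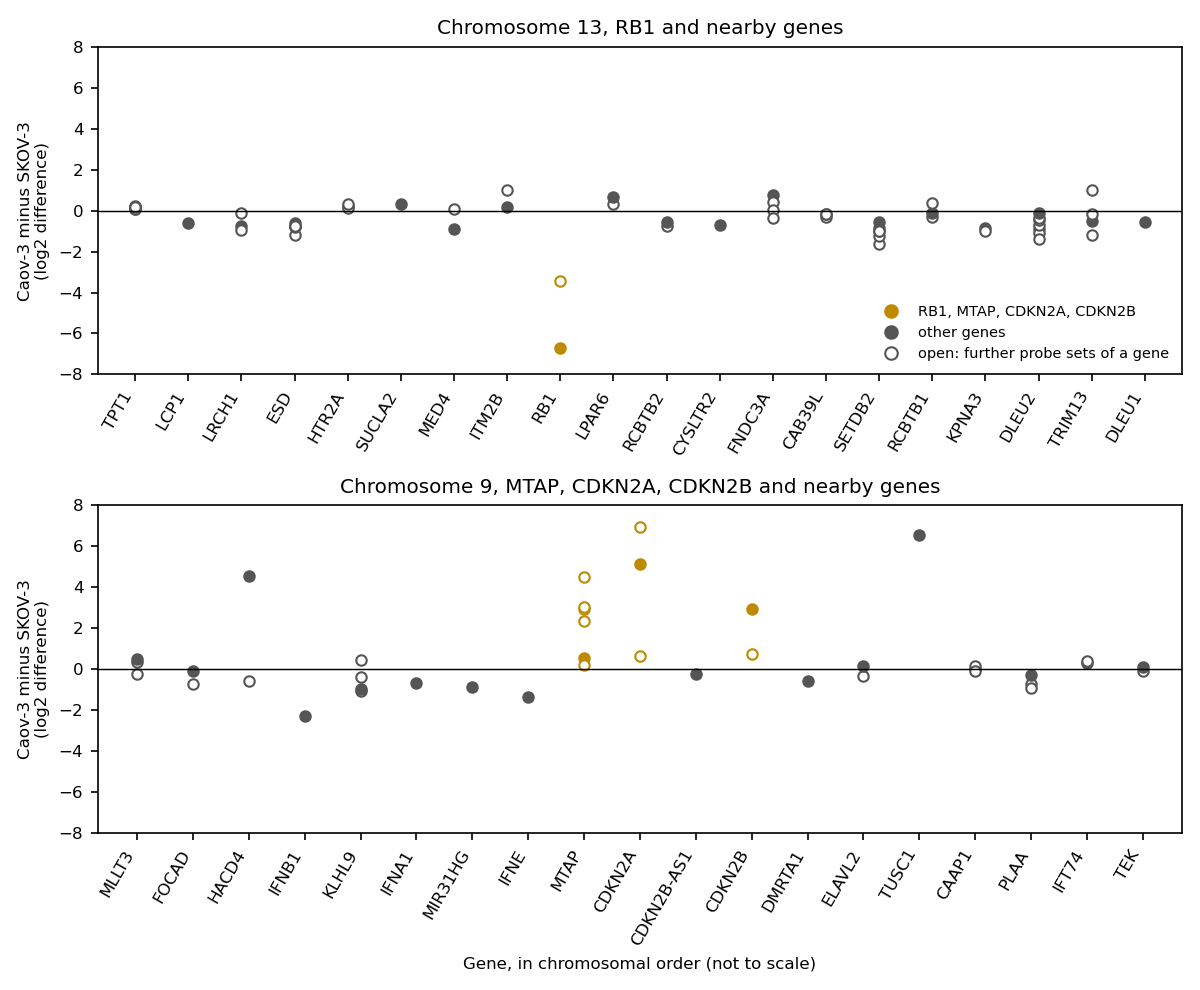
Caov-3 minus SKOV-3 log2 difference of the genes around RB1 (upper panel) and around MTAP, CDKN2A and CDKN2B (lower panel), in chromosomal order and not to scale. Filled points are the probe set of highest mean of a gene and open points its further probe sets. RB1 stands apart at -6.70 and -3.44 between ITM2B and LPAR6, and TUSC1 (6.54) and HACD4 (4.56) stand with CDKN2A above their neighbours.

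Genes of methionine salvage and polyamine synthesis, the pathway of MTAP, were read from a list of 13, all measured. In Caov-3, 3 were higher (22.8% of all genes), 8 were lower (18.1% of all genes) and 2 were not called, with a median of -0.75. SAT1, which acetylates spermidine and spermine, had the largest difference, 3.06, with 16685, 20013 and 19644 in Caov-3, against 2156, 2315 and 2214 in SKOV-3. ADI1, a dioxygenase of the salvage pathway, was higher at 1.39. ODC1, the first enzyme of polyamine synthesis, was lower at -1.24, as were WDR77 at -1.26 and its partner, the arginine methyltransferase PRMT5, at -0.78. PRMT5 is the enzyme that the substrate of MTAP inhibits.

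The kinases that p16INK4a inhibits were lower in Caov-3. CDK4, on its one probe set 202246_s_at, had 2417, 2065 and 2116 in Caov-3, against 7790, 7329 and 7567 in SKOV-3. Every SKOV-3 array lay above every Caov-3 array, and the log2 difference was -1.78 (SE 0.075, limma adjusted p = 2.65e-05). CDK6 on 224847_at had 354, 347 and 331 in Caov-3, against 4962, 4338 and 4596 in SKOV-3. Its lines were far apart, with a log2 difference of -3.69 (SE 0.094, limma adjusted p = 6.51e-06).

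All 7 CDK6 probe sets had a negative difference and 5 of them were called. On 224848_at and 224851_at the differences were -3.66 and -4.58, and on 224851_at the Caov-3 signals were 139, 72.7 and 157, against 2831, 3482 and 3308 in SKOV-3. The dimmer 243000_at (-1.30, limma adjusted p = 0.0121) and 235287_at (-1.66, limma adjusted p = 0.0134) were called with all 6 arrays but not without either array of siltuximab plus IL-6, at -1.25 and -1.45. Those differences were -0.78 on both with a pseudocount at the median, where both were called. The last, 207143_at and 231198_at, missed the threshold at -1.69 (limma adjusted p = 0.066) and -1.43 (limma adjusted p = 0.0588). Both of those passed it under quantile or loess normalization and with dim probe sets left out, at adjusted p-values of 0.04005 to 0.04745.

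Of the 5 measured genes on each side of CDK4 on chromosome 12, most were called lower in Caov-3, beside 18.1% of all genes. Whether the region differs as a whole was not tested. METTL1, a transfer RNA methyltransferase, stood at -2.07, the noncoding AGAP2-AS1 at -3.51 and the mitochondrial translation factor TSFM at -0.97. B4GALNT1, OS9 and EEF1AKMT3 were lower at -0.77, -0.43 and -0.67. TSPAN31, the nearest measured gene, stood at -0.11 and was not called, nor were AGAP2 and CYP27B1. Only MARCHF9, on the other side, was called higher, at 1.41 (22.8% of all genes were called higher). Beside CDK6 on chromosome 7, SAMD9 and SAMD9L were lower at -1.33 and -1.09, and GATAD1, ANKIB1 and VPS50 were higher at 1.07, 1.14 and 1.29. LRRD1, ERVW-1, RBM48, HEPACAM2 and CALCR were not called.

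Of the 3 D-type cyclins, CCND1 was lower in Caov-3, CCND3 was higher, and CCND2 was not called (log2 difference -0.07, limma adjusted p = 0.879). CCND1, which encodes cyclin D1, had 1958, 2469 and 2584 on 208712_at in Caov-3, against 4085, 4584 and 4559 in SKOV-3. The lines did not overlap, and the log2 difference was -0.92 (SE 0.083, limma adjusted p = 0.000382). On 208711_s_at it had 484, 226 and 581 in Caov-3, against 859, 835 and 889 in SKOV-3, a log2 difference of -1.07 (SE 0.24, limma adjusted p = 0.0176). That value was -0.70 without the Caov-3 IL-6 array, the lowest of its line, and its call was lost without either untreated array (adjusted p of 0.0503 and 0.0531) and with a prior variance without trend (adjusted p of 0.0782).

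CCND3, which encodes cyclin D3, was higher in Caov-3. Its bright probe set 201700_at had 9964, 10056 and 10208 in Caov-3, against 1380, 1229 and 1281 in SKOV-3. All Caov-3 arrays were above all SKOV-3 arrays, and the log2 difference was 2.94 (SE 0.077, limma adjusted p = 7.29e-06). Its other probe set, 1562028_at, had 140, 53.8 and 82.8 in Caov-3, against 2.89, 31.9 and 46.0 in SKOV-3. It did not overlap but was not called (log2 difference 1.39, SE 0.56, limma adjusted p = 0.119). Near CCND3 on chromosome 6, C6orf132 was higher at 3.10 and MED20 at 0.85, and BYSL, a ribosome assembly factor, was lower at -0.51. FRS3, USP49 and MRPS10 were higher as well, at 0.97, 0.77 and 0.60, while PGC, TAF8, GUCA1A and TRERF1 were not called. Over all genes 22.8% were called higher and 18.1% lower.

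CCNE1, which encodes cyclin E1 and is amplified in some ovarian carcinomas, was not called between the lines. On 213523_at it had 1128, 1330 and 1166 in Caov-3, against 1069, 870 and 1067 in SKOV-3. The Caov-3 arrays were all above the SKOV-3 arrays, yet the log2 difference of 0.27 (SE 0.13) was not called (limma adjusted p = 0.20). The second probe set, 242105_at, had signals of 49.9 or less on every array and a difference of 0.65 (limma adjusted p = 0.325). Of 6 measured neighbours on 19q12, 3 were lower in Caov-3 (18.1% of all genes) and 0 were higher (22.8% of all genes). Those lower were C19orf12 at -1.34, the chaperone-like URI1 at -1.07 and POP4, a ribonuclease P subunit, at -0.59.

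The CCND1 region of 11q13, which is often amplified as a block, had 14 other genes measured. In Caov-3, 3 were higher (22.8% of all genes), 1 was lower (18.1% of all genes) and 10 were not called. FGF19, a growth factor gene next to CCND1, had 302, 340 and 344 in Caov-3, against 13.5, 15.7 and 8.07 in SKOV-3, a log2 difference of 3.56. SHANK2 stood at 3.23 and MYEOV at -3.10, and both were called. FADD and CTTN stood at 0.00 and -0.21 and were not called.

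Other G1 cyclins and kinases were lower in Caov-3 for 5 of 10 measured genes (18.1% of all genes) and higher for 2 (22.8% of all genes). Without the Caov-3 IL-6 array 6 were lower and 1 was higher. CDC25A, the phosphatase that activates CDK2, stood at -1.93, CCNA2 at -1.10 and CCNE2, the other cyclin E gene, at -0.72, while CDK2 was higher at 0.68. Of 9 measured CDK inhibitors and their regulators, 1 was higher (22.8% of all genes) and 4 were lower (18.1% of all genes). CDKN1B, which encodes p27KIP1, was higher at 0.71, and CDKN1C at -1.45 and FBXW7, the ubiquitin ligase subunit for cyclin E, at -0.89 were lower. CDKN1A, which encodes p21, stood at 0.55 and was not called (limma adjusted p = 0.0653).

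E2F target genes did not share a direction. Of 23 measured, 7 were higher in Caov-3 (22.8% of all genes), 8 were lower (18.1% of all genes) and 8 were not called, with a median of -0.01. CDC6, a replication licensing factor, was lower at -1.62, and the helicase subunits MCM3 and MCM6 were higher at 1.18 and 0.97. PCNA and TYMS were higher by 0.26 and 0.35, and UHRF1 was lower at -0.89.

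The genes whose pattern over the 6 arrays was most like that of a member were named by the smallest Euclidean distance between centred log2 values, on the probe set of highest mean. For RB1 these were LINC00973 (0.62), PLAC8 (0.66) and TFPI (0.68), with log2 differences of -6.92, -6.30 and -6.98. FAM3B (0.38), PLXDC2 (0.43) and FGFR2 (0.46) were nearest to CDKN2A. Nearest to CCND1 were AZI2 (0.0905), the salvage enzyme gene ENOPH1 (0.106) and GTPBP4 (0.109). NEDD8 (0.0778), RPF1 (0.117) and ACVR2B-AS1 (0.119) were nearest to CCNE1. On the uninformative probe set 211364_at, MTAP was nearest to ZNF208 (0.242), LOC105373418 (0.262) and SCGB2A2 (0.270). With 6 arrays in 2 lines, such a distance for RB1, CDKN2A and CCND1 mainly ranks how alike the difference between the lines is. For CCNE1 and MTAP the line differences on these probe sets were 0.27 and 0.54. Their standard deviations within Caov-3 and SKOV-3 were 0.12 and 0.17 for CCNE1 and 0.37 and 0.31 for MTAP. There the distance also reflects the spread within each line.

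Treatment with IL-6, alone or after siltuximab, called no member in either direction. Over both lines together, limma called 0 of the 29 probe sets for IL-6 against untreated, where it called 0% of all probe sets, and 2 of the 29 had an unadjusted p under 0.05, beside 3643 of all 54613. For siltuximab plus IL-6 against IL-6 it called 0 of the 29 and 0% of all, with 0 of the 29 and 1745 of all under an unadjusted 0.05. For siltuximab plus IL-6 against untreated it called 0 of the 29 and 0% of all, with 3 of the 29 and 2558 of all under it. The 3 comparisons share arrays with each other. Without the SKOV-3 IL-6 array the number called over all probe sets was 1843 for IL-6 against untreated and 1368 for siltuximab plus IL-6 against IL-6, where IL-6 alone then rests on the Caov-3 IL-6 array, the one with the low ACTB ratio. Of the 29, CCND1 208711_s_at was among those called for IL-6 against untreated, and CCND1 208711_s_at and CDK6 224851_at among those called for siltuximab plus IL-6 against IL-6.

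RBL2 had the smallest p of the members for IL-6. Its 212331_at signals were 1805 with IL-6 and 1345 untreated in Caov-3, and 1780 with IL-6 and 1287 untreated in SKOV-3. The fold was above 0 in both lines, at 0.42 in Caov-3 and 0.46 in SKOV-3 on the log2 scale, and the joint difference was 0.44 (SE 0.11, unadjusted p = 0.00768, limma adjusted p = 0.732). The other RBL2 probe set stood at -0.58 in Caov-3 and 0.30 in SKOV-3. CCND1, a known STAT3 target, had log2 folds of 0.33 in Caov-3 and 0.17 in SKOV-3 on 208712_at (joint difference 0.25, SE 0.10, limma adjusted p = 0.748). Its 208711_s_at stood at -1.04 in Caov-3 and -0.04 in SKOV-3, so that its probe sets disagreed. Against IL-6, siltuximab plus IL-6 gave CCND1 folds of 0.07 in Caov-3 and -0.01 in SKOV-3 on 208712_at. On 208711_s_at these folds were 1.30 and 0.09, so that its probe sets disagreed here too. The value of 1.30 rests on the Caov-3 IL-6 array, the one with the low ACTB ratio.

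Within a line each fold is 1 array over 1 array and has no test. In Caov-3, IL-6 over untreated put 2 of the 29 probe sets past 1.5-fold upwards and 6 downwards, where 30.5% of all probe sets were past that fold. With siltuximab plus IL-6 over IL-6 the counts were 6 higher and 2 lower, where 27.7% of all were past it, and over untreated 5 higher and 3 lower, where 22.6% of all were. Over all probe sets in Caov-3, those higher and lower were 6048 and 10625, 9814 and 5321, and 6004 and 6350, in the same order. Both IL-6 over untreated and siltuximab plus IL-6 over IL-6 rest on the same IL-6 array. In SKOV-3, IL-6 over untreated gave 4 higher and 4 lower (24.5% of all), siltuximab plus IL-6 over IL-6 gave 3 higher and 1 lower (20.3% of all), and over untreated 5 higher and 5 lower (23.4% of all). Over all probe sets in SKOV-3, those higher and lower were 6037 and 7337, 5027 and 6063, and 5126 and 7646. The members' shares ran from 13.8% to 34.5%.

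Most of these folds lay in dim probe sets. Where the higher array of the pair was at or above its own median, 4 of 19 probe sets were past 1.5-fold with IL-6 over untreated in Caov-3 (23.9% of all such probe sets), 3 of 19 with siltuximab plus IL-6 over IL-6 (20% of all such) and 3 of 20 over untreated (10.3% of all such). In SKOV-3 they were 3 of 17 (14% of all such), 1 of 18 (9.59% of all such) and 2 of 18 (11.9% of all such). Among the 4 in Caov-3 with IL-6 were CDKN2B 236313_at, at 225 with IL-6 and 111 untreated, CDK6 224851_at, at 72.7 with IL-6 and 139 untreated, and CCND1 208711_s_at, at 226 with IL-6 and 484 untreated. All 3 rest on the array with the ACTB ratio of 0.494, whose part in them was not tested.

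Of the probe sets called between the lines, some are given here with their treatment folds. CCND3 201700_at had log2 folds of 0.01 with IL-6 and 0.03 with siltuximab plus IL-6 over untreated in Caov-3, and of -0.17 and -0.11 in SKOV-3. CDK6 224851_at stood at -0.79 and 0.16 in Caov-3 and at 0.30 and 0.22 in SKOV-3. CDKN2A 207039_at stood at 0.02 and 0.09 in Caov-3, and at -0.83 and -0.67 in SKOV-3, there from signals of 16.8 or less. CDK4 stood at -0.23 and -0.19 in Caov-3 and at -0.09 and -0.04 in SKOV-3. RB1 203132_at in SKOV-3 stood at 0.47 with IL-6 and 0.27 with siltuximab plus IL-6 over untreated. In Caov-3 its folds come from signals of 2.37 or less and have no readable direction, since the sign with IL-6 turned under loess normalization. CDKN2A 209644_x_at stood at -0.01 and -0.08 in Caov-3 and at -0.95 and -1.08 in SKOV-3, where the untreated array was the highest of the 3.

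**Figure D4:**
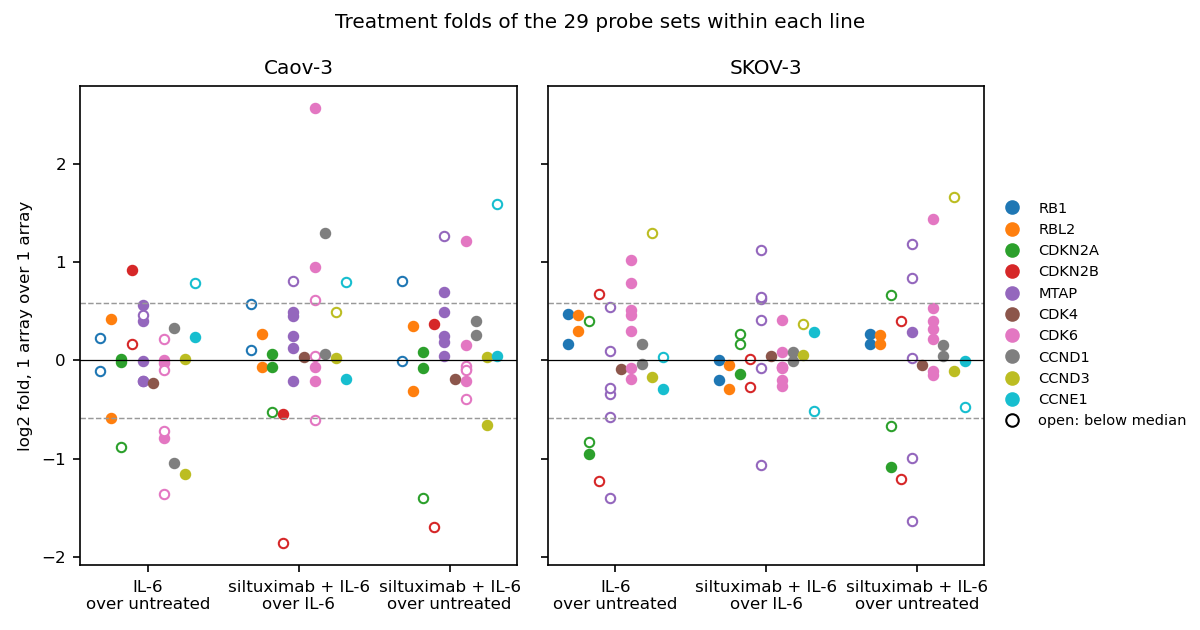
Log2 fold of 1 array over 1 array within Caov-3 (left) and SKOV-3 (right) for the 29 probe sets, coloured by gene, with dashed lines at 1.5-fold. Open points are probe sets whose higher array was below its median signal, and they make up most of the points outside the dashed lines.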

How the data were processed

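Total RNA of Caov-3 and SKOV-3 cells was measured on 6 arrays, and groups were taken from the sample titles. Per the labels' protocols, RNA of 3 flasks was pooled for each array, so that p-values do not measure the spread between flasks. They rest on how treatment differences vary between the lines, with the variance moderated by limma over all probe sets. Each deposited value is the linear signal intensity of a probe set. Affymetrix Expression Console and MAS5 are named in the submitters' processing notes, with versions not given in the sources used here. After trimming 2% at each end, array means were 500.06 to 500.07, and no detection calls or further normalization were used. Precision is limited by the small number of arrays.

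Of 54675 probe sets, 62 controls were left out. The platform annotation gave 1 symbol to 41091 of the rest, several to 1801 and none to 11721, and 41037 of those with 1 symbol matched a current gene record. Log2 was taken after adding 17.0625, the 20th percentile of the values of probe sets with 1 symbol. No filter on low values was set, so that all 29 members were tested.

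limma 3.58.1 in R 4.3.3 (lmFit, then eBayes with a trended prior) was fitted with line and treatment as factors and 2 residual degrees of freedom, and was tested on simulated data. Folds of 1 array over 1 array were counted past 1.5-fold. Alternatives were quantile and loess normalization, pseudocounts of 1 and 111, a filter at the median, no trend, no treatment block, a fold of 2 and leaving out each array. Tables and figures were made in Python 3.11.15 (pandas 2.3.3, numpy 2.4.6, matplotlib 3.10.9).

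Members and gene lists were chosen with earlier results of these data known. All member probe sets are named, together with the 3 listed genes of largest difference per list, the 3 genes most alike to 5 members, and genes adjacent to members. Other genes of the lists or neighbouring genes that are named (E2F1, CDK2, CDKN1A, PCNA, TYMS, UHRF1, CCND2, ODC1, PRMT5, FADD, CTTN, LPAR6, ITM2B, KLHL9, IFNE, MIR31HG, FOCAD, CAAP1, CDKN2B-AS1 and DMRTA1, and those around CDK4, CDK6 and CCND3) and the remaining markers were picked after their values were seen. SETDB2, DLEU2, ESD and TRIM13 were picked in the same way. Such a gene stands on its probe set of highest mean unless another is stated.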

Additional observations from a re-analysis of the deposited data

Results flagged for a closer look

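In 3 of the 29 probe sets the treatment folds of the lines went opposite ways, each by at least 1.5-fold. The share of all probe sets with such a pair was not counted. In a single comparison over untreated, 22.6% to 30.5% of all probe sets were past that fold. Each fold is 1 array over 1 array, and the difference between the lines was not tested. CDKN2A 211156_at with siltuximab plus IL-6 over untreated stood at -1.4 on the log2 scale in Caov-3 and at 0.669 in SKOV-3. Its signals were dim, at 69.5 untreated and 15.7 treated in Caov-3, and at 8.65 and 23.8 in SKOV-3. CDK6 231198_at with IL-6 over untreated stood at -0.713 in Caov-3 and at 1.02 in SKOV-3. Its signals were 31.4 untreated and 12.5 with IL-6 in Caov-3, and 44.2 and 107.6 in SKOV-3. CCND3 1562028_at stood at -1.15 in Caov-3 and 1.29 in SKOV-3 with IL-6 over untreated, and at -0.656 in Caov-3 and 1.66 in SKOV-3 with siltuximab plus IL-6 over untreated. The 2 CCND3 comparisons share the untreated arrays. The probe sets of highest mean of these genes, CDKN2A 209644_x_at, CDK6 224847_at and CCND3 201700_at, had no such pair of folds.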

How the results depend on the processing

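Of 372 recomputed line differences of the 29 probe sets, 353 kept their direction and their side of the threshold, 8 lost a call, 9 gained one and 2 turned their sign. The sign turned for RBL2 212332_at, at -0.05945 without the untreated array of either line, and it was at -0.05945 to 0.3812 with 1 array left out. The lost calls were those of CDK6 243000_at and 235287_at, CCND1 208711_s_at and MTAP 204956_at, each given with the results. The count of probe sets called between the lines was 16630, and 10717 to 17744 over the alternatives, with 10717 to 17549 when 1 array was left out. It fell to 10822 without the Caov-3 array of siltuximab plus IL-6 and to 10717 without that of SKOV-3. The counts called for treatment, 0 on all arrays, ran from 0 to 1843 for IL-6 against untreated, from 0 to 1368 for siltuximab plus IL-6 against IL-6 and from 0 to 3 for siltuximab plus IL-6 against untreated when 1 array was left out. The highest of these left out the SKOV-3 IL-6 array. The cause was not tested.

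Counts past 1.5-fold within a line depended on how dim probe sets were treated. With a pseudocount of 1 they were 18824 for siltuximab plus IL-6 over untreated in Caov-3, and in SKOV-3 20350 (IL-6 over untreated), 18274 (siltuximab plus IL-6 over IL-6) and 19776 (siltuximab plus IL-6 over untreated). In the order IL-6 over untreated, siltuximab plus IL-6 over IL-6 and siltuximab plus IL-6 over untreated, a pseudocount at the median gave 4471, 3605 and 1285 in Caov-3 and 1740, 880 and 1263 in SKOV-3. A filter at the median, which tests fewer probe sets, gave 7054, 5884 and 2988 in Caov-3 and 4091, 2762 and 3449 in SKOV-3. A fold of 2 gave 8007, 7235 and 5158 in Caov-3 and 5486, 4116 and 5284 in SKOV-3. Treatment was a block in the comparison of the lines, and without that block 17744 probe sets were called. No paired analysis was possible because replicate numbers, with 1 array a group, carry no pairing beyond treatment.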
